A study of Mus musculus with 13 samples.

Results

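Acute-phase transcripts were followed in the brain vessels of mice given bacterial endotoxin. The set held 10 genes of the 47643 listed, picked by symbol: *Saa3*, *Orm2*, *Lrg1*, *Ptx3*, *Crp*, *Serpina3n*, *Lcn2*, *Hp*, *Cp* and *Steap4*. RNA-seq of isolated neurovasculature from 13 male CD1 mice aged 8 to 10 weeks gave the values, with 1 library per mouse. LPS_Vehicle mice (LPS mice, n = 5) were injected intraperitoneally with 3 mg/kg of Salmonella lipopolysaccharide (LPS) at 0, 6 and 24 h and received the drug vehicle, a mixture of DMSO, Cremophor and saline. LPS_CPD4645 mice (LPS/CPD-4645 mice, n = 4) had the same LPS injections, each followed after 30 min, by the labels, by 10 mg/kg of CPD-4645, a covalent inhibitor of the 2-AG-hydrolyzing enzyme MAGL, under the skin. The study's results text gives a longer delay than its labels and methods. Sham_Vehicle mice (sham mice, n = 4) carried a sham label in place of LPS and, like the LPS mice, a vehicle label. What they were given in place of LPS is not stated in the sources used here. All brains were taken 28 h after the first injection and frozen without perfusion. In such bulk samples, fewer cells of a type and less RNA per cell cannot be told apart.

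The acute-phase response is the change in plasma proteins that follows infection or tissue injury. In the liver it is driven mainly by IL-6 acting through STAT3, and by IL-1 and TNF acting through NF-κB and C/EBP factors. Many acute-phase proteins are also made outside the liver, by endothelial cells, astrocytes and myeloid cells, where they bind microbial products, iron, heme or proteases.

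Levels are given as CPM, the counts of a gene scaled to a common library size after TMM normalization. Differences are log2 fold changes with their standard error (SE) from edgeR's quasi-likelihood fit, and a gene passed the threshold when it changed at least 2-fold with an adjusted p (Benjamini-Hochberg, over all 17285 genes tested) no higher than 0.05. Libraries held 7813559 to 55133373 counts, with LPS mouse 3 the shallowest and LPS mouse 2 the deepest. Of the 10 members, 9 passed the filter on low counts. *Orm2* did not, and *Crp* passed through the LPS group alone, where 4 of 5 mice exceeded 0.371 CPM, so its change against that group was not free to be small. *Hp* exceeded that level in 1 of 4 sham mice and in all 5 LPS and 4 LPS/CPD-4645 mice. Against sham, *Hp* thus also entered through the groups where it was high. The preparation was checked against marker lists. The 10 endothelial markers summed to 316 to 522 CPM in sham, 322 to 708 CPM in LPS and 357 to 515 CPM in LPS/CPD-4645 mice. The 10 neuronal markers summed to 11490 to 13260, 9471 to 10520 and 10130 to 12850 CPM in the same groups, so neuronal RNA was present beside the vessels. These sums are not scaled for transcript length and do not give shares of cells. By RT-qPCR the paper found *Syp* and *Aif1* scarce in such preparations and *Gfap*, *Pdgfrb* and *Pecam1* enriched. From this it reports that astrocytes, pericytes and endothelial cells outweighed neurons and microglia. The neuronal sums of LPS mice lay below those of all sham mice, as did their oligodendrocyte sums (3845 to 5022 against 5237 to 7336 CPM) and erythrocyte sums (625 to 918 against 1010 to 1438 CPM). Summed levels of the 12 hepatocyte markers stayed between 1.77 and 5.01 CPM, and albumin did not exceed 0.339 CPM in any mouse.

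The members lie on 9 chromosomes, and 9 of them have a promoter sequence in RefSeq (GRCm38.p6), all but *Hp*. In the 250 bases before their start sites, 3 motifs of the response were searched on both strands: C/EBP (TTGCNNAA), STAT (TTCNNNGAA) and the NF-κB consensus. The C/EBP letters were present before 6 of the 9 genes (*Saa3*, *Orm2*, *Ptx3*, *Lcn2*, *Cp* and *Steap4*), and the same letters are in 9.56% of the 32851 promoter windows of this length. That share is per window, and *Cp* had a further window without a match. The matches of *Lcn2* and *Cp* lie within annotated exons. A STAT match (7.02% of all windows) and 2 NF-κB matches (7.25%) were found before *Steap4* only. The stretches that hold matches outside annotated exons are shown, with that of *Serpina3n*, which had none, for comparison. Capitals mark the matches. On the minus strand the C/EBP letters read as their reverse complement, as in *Saa3* and *Ptx3*. In *Steap4* the capitals are, in order, 2 NF-κB matches, the STAT match and the C/EBP match.
Saa3 (chr7:46715701-46715926, minus strand): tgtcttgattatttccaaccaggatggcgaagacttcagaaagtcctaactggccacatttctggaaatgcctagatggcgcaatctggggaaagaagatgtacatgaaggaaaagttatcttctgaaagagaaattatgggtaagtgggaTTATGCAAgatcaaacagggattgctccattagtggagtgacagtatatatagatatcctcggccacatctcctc
Orm2 (chr4:63362199-63362448, plus strand): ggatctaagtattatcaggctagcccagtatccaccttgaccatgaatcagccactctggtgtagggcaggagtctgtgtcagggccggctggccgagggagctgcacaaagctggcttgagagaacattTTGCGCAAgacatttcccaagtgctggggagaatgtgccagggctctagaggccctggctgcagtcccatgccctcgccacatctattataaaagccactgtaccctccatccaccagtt
Ptx3 (chr3:66219637-66219886, plus strand): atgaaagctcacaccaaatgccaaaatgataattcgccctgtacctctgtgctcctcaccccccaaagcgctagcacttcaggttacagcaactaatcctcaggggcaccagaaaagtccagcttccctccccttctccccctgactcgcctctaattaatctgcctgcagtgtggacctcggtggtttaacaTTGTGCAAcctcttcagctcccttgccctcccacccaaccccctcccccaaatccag
Steap4 (chr5:7960222-7960456, plus strand): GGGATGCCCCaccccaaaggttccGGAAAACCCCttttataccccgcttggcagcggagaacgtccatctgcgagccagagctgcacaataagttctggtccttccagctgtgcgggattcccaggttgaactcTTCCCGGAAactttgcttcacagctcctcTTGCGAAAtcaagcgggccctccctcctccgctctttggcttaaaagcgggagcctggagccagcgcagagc
Serpina3n (chr12:104406458-104406707, plus strand): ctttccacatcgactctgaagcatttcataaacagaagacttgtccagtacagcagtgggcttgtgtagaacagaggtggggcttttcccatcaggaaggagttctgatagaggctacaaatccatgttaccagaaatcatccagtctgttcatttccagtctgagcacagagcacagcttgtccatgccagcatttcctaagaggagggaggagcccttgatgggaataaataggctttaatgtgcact

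LPS against sham asked how the vessels responded to systemic endotoxin. All 8 members tested other than *Crp* rose past the threshold, where 4.68% of all genes tested were higher. In each of the 8 the lowest LPS mouse was above the highest sham mouse, which held for 9.68% of all genes tested. Their median log2 fold change was 3.94, against -0.0007 over all genes tested. *Crp* also passed, but it entered the test through the LPS group alone and is left out of these counts. *Hp*, over the filter in 1 of 4 sham mice, is kept in them. Of the 10 endothelial markers 2 rose and 2 fell after LPS, where 0.995% of all genes tested fell. Under CPD-4645 5 of the 10 were lower by adjusted p, as were 16.4% of all genes tested, and 1 of them passed the threshold, as did 4.19% downward of all genes tested. Astrocyte markers summed to 1733 to 2219 CPM in sham, 2309 to 3031 CPM in LPS and 2194 to 2790 CPM in LPS/CPD-4645 mice. Of the 10, 2 rose and 1 fell after LPS and 0 passed under CPD-4645. *Gfap*, an intermediate filament of astrocytes, rose by 2.40 after LPS, from a mean of 95.2 to 504 CPM (adjusted p = 6.66e-08). Of 10 microglia markers 5 fell and 0 rose after LPS, and 1 rose and 1 fell under CPD-4645. *P2ry12*, a receptor of resting microglia, fell by 3.33 after LPS, from 26.9 to 2.58 CPM (adjusted p = 1.52e-08). The part of these cell types, and of the neuronal, oligodendrocyte and erythrocyte sums, in the members' changes was not tested.

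*Saa3* (chromosome 7, 46711998 to 46715700) encodes an inducible serum amyloid A made largely outside the liver. It stood at 14.4, 9.77, 3.90 and 2.96 CPM in sham mice 1 to 4 and at 404, 415, 1094, 227 and 315 CPM in LPS mice 1 to 5. The groups were far apart, with LPS mouse 3 standing alone at the top. The rise was 5.93 (SE 0.52, adjusted p = 2.77e-07), the 15th largest fitted rise of all genes tested. In rank of mean level among the genes tested, *Saa3* moved from 10918 in sham to 191 in LPS mice.

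*Lcn2* (chromosome 2, 32384633 to 32388252) encodes lipocalin 2, which withholds iron from bacteria by binding their siderophores. Sham mice 1 to 4 had 56.0, 24.1, 7.77 and 6.22 CPM, and LPS mice 1 to 5 had 563, 902, 730, 452 and 853 CPM. Sham mouse 1 was the highest of its group and still several-fold below every LPS mouse. The log2 fold change was 4.87 (SE 0.49, adjusted p = 1.4e-06), and it was 5.77 without sham mouse 1. *Lcn2* ranked 111 in mean level in LPS mice.

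*Lrg1* (chromosome 17, 56119678 to 56122001) encodes a leucine-rich glycoprotein that modulates TGF-β signaling in endothelial cells. It had 4.02, 2.21, 3.27 and 2.22 CPM in the sham mice and 22.3, 35.5, 17.0, 34.3 and 46.4 CPM in the LPS mice. The LPS mice differed among themselves by less than the gap to the sham mice on the log scale. Its rise of 3.40 had an SE of 0.26 (adjusted p = 6.1e-08).

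*Ptx3* (chromosome 3, 66219910 to 66225805) encodes the long pentraxin made locally by endothelial and myeloid cells, and *Crp* the short pentraxin of the liver. *Ptx3* had 0.713, 1.81, 0.478 and 0.691 CPM in sham mice and 24.6, 8.02, 74.99, 8.87 and 2.59 CPM in LPS mice. LPS mouse 3 was highest and LPS mouse 5 lay just above the highest sham mouse. The rise was 4.62 (SE 0.88, adjusted p = 0.00105) and 3.57 without LPS mouse 3, and in limma-voom, the study's own test, it was 3.49 and missed the threshold (adjusted p = 0.117). *Ptx3* lies within *Veph1* on the opposite strand, a gene that reached at most 0.341 CPM in any mouse.

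*Crp* (chromosome 1, 172698055 to 172833031) had a count of 1 in sham mouse 1, or 0.0285 CPM, and 0 in the other sham mice. LPS mice 1 to 5 had 0.549, 6.06, 0.756, 0.520 and 0.358 CPM. LPS mouse 2 held 338 counts and stood far above the other LPS mice, which held 6 to 19 counts each. Because the sham mice were at the floor of 3 counts per library, the change is a bound: *Crp* was at least 13.9-fold higher after LPS (adjusted p = 0.000974), and at least 4.61-fold higher on the mean without LPS mouse 2. With LPS mouse 1, 2, 3 or 4 left out it failed the filter, and without sham mouse 1 the fitted change went from 6.96 to 8.55.

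*Serpina3n* (chromosome 12, 104406729 to 104414329) encodes a secreted serine protease inhibitor and a marker of reactive astrocytes. It was the member with the highest level in sham mice, at 112, 93.4, 67.2 and 63.9 CPM, and reached 605, 745, 640, 363 and 571 CPM in LPS mice. The lowest LPS mouse was more than 3 times the highest sham mouse. The rise of 2.79 (SE 0.22, adjusted p = 6.68e-08) was small beside those of *Saa3* and *Lcn2*.

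*Hp* (chromosome 8, 109575128 to 109579172) encodes haptoglobin, the scavenger of free hemoglobin, which neutrophils also store in their granules. Sham mice had 0.799, 0.362, 0.279 and 0.198 CPM and LPS mice 7.35, 17.7, 10.8, 5.37 and 5.81 CPM. LPS mouse 2 was the highest. Its log2 fold change was 4.42 (SE 0.45, adjusted p = 1.5e-06), or 5.03 without sham mouse 1.

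*Cp* (chromosome 3, 19957054 to 20009145) encodes ceruloplasmin, a copper-carrying ferroxidase, and *Steap4* (chromosome 5, 7960457 to 7982213) a membrane metalloreductase of iron and copper. *Cp* went from 13.8, 11.4, 9.12 and 10.4 CPM in sham mice to 52.4, 56.0, 59.5, 57.6 and 87.5 CPM in LPS mice. *Steap4* went from 1.45, 1.17, 0.677 and 0.444 CPM to 10.8, 13.6, 12.1, 7.17 and 10.1 CPM. Both were narrowly spread within the LPS group apart from LPS mouse 5 for *Cp*. The rises were 2.48 for *Cp* (SE 0.29, adjusted p = 7.19e-06) and 3.46 for *Steap4* (SE 0.30, adjusted p = 1.82e-07). *Cp* shares 108 exonic bases with *Hps3* on the opposite strand, whose level lay between 22.8 and 30.4 CPM in every mouse.

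*Orm2* (chromosome 4, 63362449 to 63365878), an orosomucoid that carries lipophilic molecules in plasma, was near the limit of detection. A count of 1 in sham mouse 4 (0.0494 CPM) was the only one in that group. In LPS mice 1 to 5 it had 0, 0.0179, 0.126, 0 and 1.55 CPM, so that LPS mouse 5, with 52 counts, held nearly all of its reads. The groups overlapped. The means gave at least a 2.86-fold higher level after LPS, and the exact permutation test of that difference (two-sided, smallest possible p 0.00794) had p = 0.643. Without LPS mouse 5 the LPS mean was 0.0360 CPM, under the floor of the sham libraries. Without the filter on low counts edgeR fitted a rise of 4.59 (SE 1.55, adjusted p = 0.0475).

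**Figure D1:**
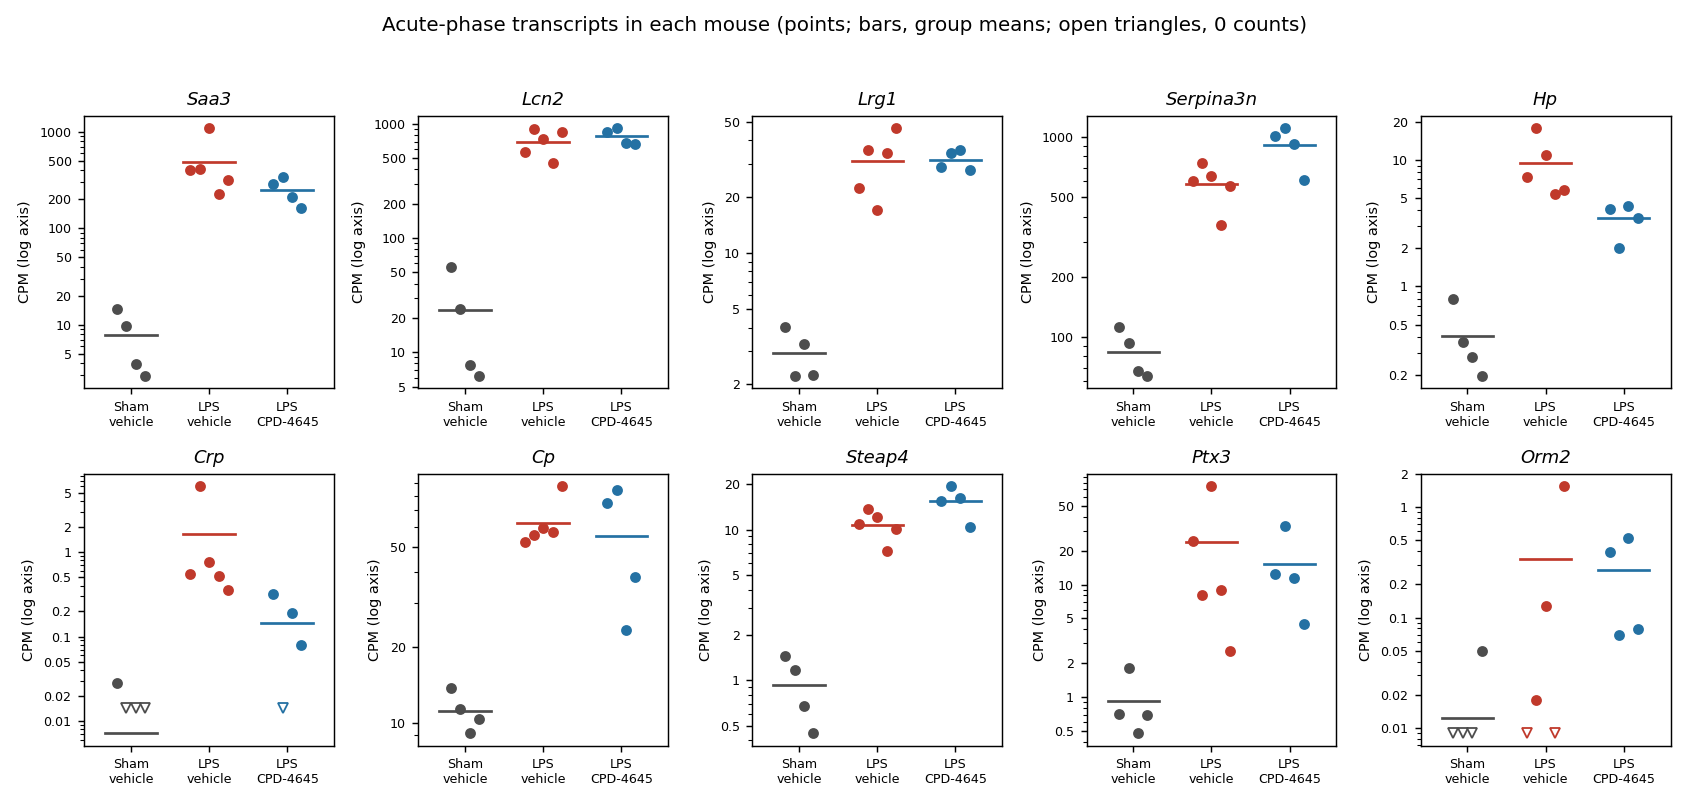
CPM of the 10 members in each mouse on log axes, 1 panel per gene, with bars at the group means and open triangles for a count of 0. For the 8 members tested other than *Crp* every LPS mouse lies above every sham mouse, as for 9.68% of all genes tested. The same holds for *Crp*, which passed the filter only through the LPS group. *Saa3* runs from 2.96 CPM in the lowest sham mouse to 1094 CPM in LPS mouse 3.

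Levels were also compared between members per kilobase of each gene's principal transcript. In sham mice *Serpina3n* led at 40.8 CPM per kb, followed by *Lcn2* at 25.7 (13.9 without sham mouse 1) and *Saa3* at 14.0. In LPS mice the order of these levels was *Saa3* at 885, *Lcn2* at 765 and *Serpina3n* at 283 CPM per kb, then *Lrg1* at 22.1, *Cp* at 15.5, *Ptx3* at 12.5, *Hp* at 7.001, *Steap4* at 3.41, *Crp* at 0.973 and *Orm2* at 0.437. Single mice set several of these places. Without LPS mouse 3 *Saa3* was at 613 CPM per kb, below *Lcn2* at 757, and *Ptx3* was at 5.80, below *Hp* at 6.74. Without LPS mouse 5 *Ptx3* was at 15.3, above *Cp* at 13.99, and *Orm2* at 0.0464, and without LPS mouse 2 *Crp* was at 0.322, below *Orm2* at 0.541. The place of *Saa3* also depends on which exons its reads came from, since over all its annotated exons it had 189 CPM per kb, below both others. The place of *Cp* depends on it as well, at 10.8 CPM per kb over all its exons, below *Ptx3*. Windows of 75 bases, the read length, had no exact copy in transcripts of other genes along nearly the whole of each principal transcript. Copies with mismatches and copies outside annotated transcripts were not searched. The exceptions were *Orm2*, with 98 of 701 such windows shared, nearly all with *Orm1*, and *Serpina3n*, with 29 of 1990 shared with *Serpina3e-ps*, and the values of *Orm2* are uncertain for that reason.

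The members did not rank the mice alike. Sham mouse 1 was highest of its group for 8 of the 9 members tested and sham mouse 4 lowest for 5. Among LPS mice, mouse 2 was highest for 5 and mouse 4 lowest for 5, while LPS mouse 3 led *Saa3* and *Ptx3* and LPS mouse 5 led *Lrg1* and *Cp*. Over the 13 mice the closest pair of profiles was *Serpina3n* and *Steap4*, with a root-mean-square difference of 0.357 between their centred log2 CPM, and the farthest was *Lcn2* and *Crp* at 2.06.

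LPS/CPD-4645 against LPS asked whether CPD-4645 changed the levels reached after LPS. The paper reports that the compound also partly inhibited the enzymes ABHD6 and FAAH in the brain. No group received CPD-4645 without LPS, so an effect of the compound apart from the LPS response cannot be told apart. *Hp* fell past the threshold, 1 of the 8 members tested other than *Crp*, where 4.19% of all genes tested were lower. None of the 8 was higher past the threshold, against 1.70% of all genes tested. The median over the 8 was -0.09, beside -0.02 over all genes tested. *Crp* passed as well, but it was tested only through its level in the LPS group and is not counted. In *Hp* the groups did not overlap, which held downward for 2069 of the 17285 genes tested. This comparison shares the 5 LPS mice with the one before.

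*Hp* had 4.11, 2.03, 4.33 and 3.45 CPM in LPS/CPD-4645 mice 1 to 4. The highest of these lay below the lowest LPS mouse, at 5.37 CPM. It fell by 1.44 on the log2 scale (SE 0.37, adjusted p = 0.00661), a level 2.72-fold lower. With LPS mice 2 and 3 both left out, an alternative chosen after seeing the data, the change was -0.84 and no longer passed (adjusted p = 0.0725).

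*Crp* had 0.316, 0, 0.188 and 0.0785 CPM in LPS/CPD-4645 mice, from 0 to 5 counts each. LPS mouse 5, the lowest of its group, had 0.358 CPM. The fitted change was -3.71 (SE 0.98, adjusted p = 0.00819), with adjusted p = 0.0547 in limma-voom and no adjusted p in DESeq2. It rests on LPS mouse 2 for its size, and *Crp* was not tested without LPS mouse 1, 2, 3 or 4.

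Markers of blood myeloid cells moved with both. The 12 neutrophil markers summed to 5.43 to 13.4 CPM in sham mice, 77.8 to 302 CPM in LPS mice and 12.5 to 33.2 CPM in LPS/CPD-4645 mice, with the maximum in LPS mouse 2. Of the 10 tested, *Camp*, *Cxcr2* and *Retnlg* passed the filter only through the LPS group. Of the other 7, 6 rose after LPS and 6 fell under CPD-4645, among them *S100a8* and *S100a9*, and none of the 12 was at 0 in every mouse. The 10 monocyte and macrophage markers summed to 25.1 to 34.4, 74.3 to 144 and 26.6 to 46.0 CPM in the same groups, with 7 of 8 tested higher after LPS (4.68% of all genes tested) and 4 of 8 lower under CPD-4645 (4.19%). Hepatocyte markers summed to 1.77 to 3.70, 2.77 to 5.01 and 3.08 to 5.01 CPM. The part of these cells in the values of *Hp* and *Crp* was not tested.

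**Figure D2:**
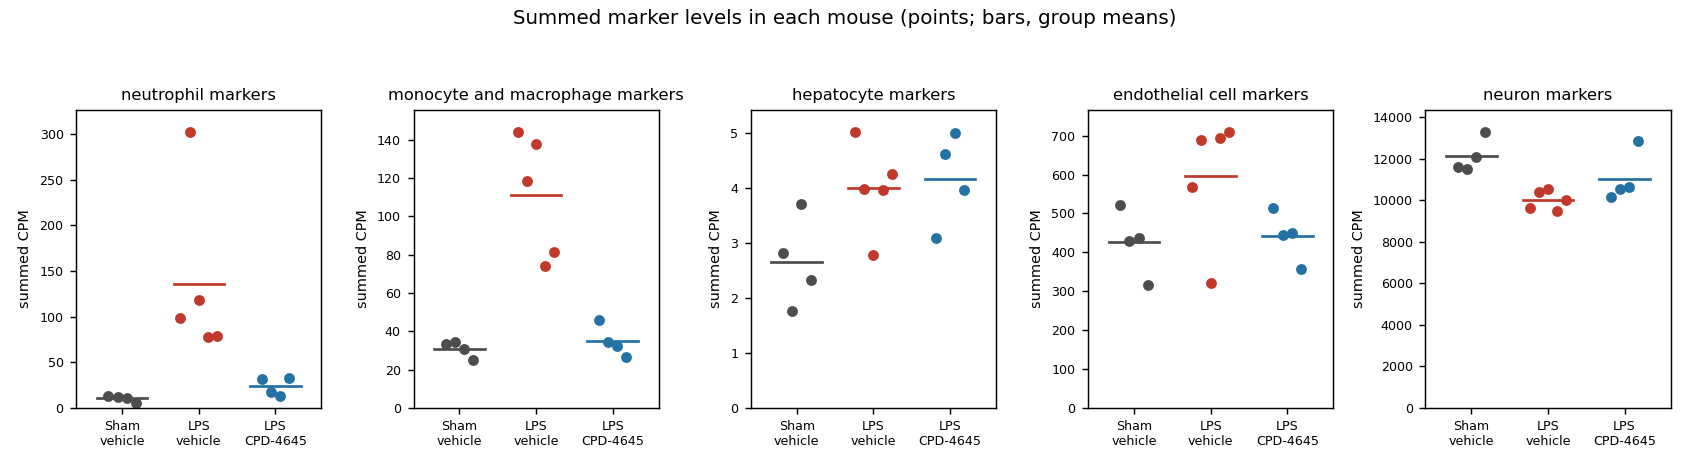
Summed CPM of 5 marker lists in each mouse on linear axes from 0, with bars at the group means. Neutrophil markers reach 302 CPM in LPS mouse 2 and lie between 12.5 and 33.2 CPM in LPS/CPD-4645 mice, while hepatocyte markers stay at or below 5.01 CPM in all mice.

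*Saa3* had 291, 345, 212 and 163 CPM in LPS/CPD-4645 mice. Mice 1 and 2 lay within the LPS range and mice 3 and 4 below every LPS mouse, and the groups overlapped. The difference was -0.95 (SE 0.40, 95% interval -1.80 to -0.10, adjusted p = 0.0821) and missed the threshold. Without LPS mouse 3, the mouse at 1094 CPM, it was -0.43 (adjusted p = 0.321), and without LPS mouse 4, the lowest of its group, it was -1.14 and passed (adjusted p = 0.0396).

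*Serpina3n* had 1017, 1107, 925 and 608 CPM in LPS/CPD-4645 mice. Of these, 3 were above every LPS mouse and the fourth lay within their range. The change of 0.64 (SE 0.20, adjusted p = 0.019) passed the adjusted p but not the 2-fold part of the threshold. By adjusted p alone 1 of the 9 members was higher, as were 14.1% of all genes tested. *Steap4* had 15.6, 19.5, 16.1 and 10.4 CPM, again with 3 mice above every LPS mouse, and its 0.52 (SE 0.24, 95% interval 0.02 to 1.03) had an adjusted p of 0.107.

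*Lcn2* had 853, 916, 676 and 668 CPM in LPS/CPD-4645 mice, within or just above the LPS range. Its difference was 0.15 with a 95% interval of -0.69 to 0.99 (adjusted p = 0.803). *Lrg1* had 28.8, 34.0, 35.3 and 27.6 CPM, all within the LPS range. The *Lrg1* difference was 0.00 with an interval of -0.46 to 0.47 (adjusted p = 0.998), which leaves out a 2-fold change in either direction.

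*Cp* had 74.95, 84.3, 23.4 and 38.1 CPM in LPS/CPD-4645 mice. Mice 1 and 2 lay within the upper LPS range and mice 3 and 4 below all LPS mice. The difference was -0.19 with an interval of -0.74 to 0.37 (adjusted p = 0.624), and it was 0.08 without LPS/CPD-4645 mouse 3. *Ptx3* had 12.5, 32.9, 11.5 and 4.43 CPM and a difference of -0.55 whose interval of -1.997 to 0.89 was the widest but for *Crp* (adjusted p = 0.575). The *Ptx3* difference was 0.49 without LPS mouse 3, 0.41 in limma-voom and -1.28 without LPS/CPD-4645 mouse 2. *Orm2* had 0.395, 0.0699, 0.527 and 0.0785 CPM, all above the sham mice, and did not differ detectably from LPS mice at this depth (exact permutation p = 0.984).

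**Figure D3:**
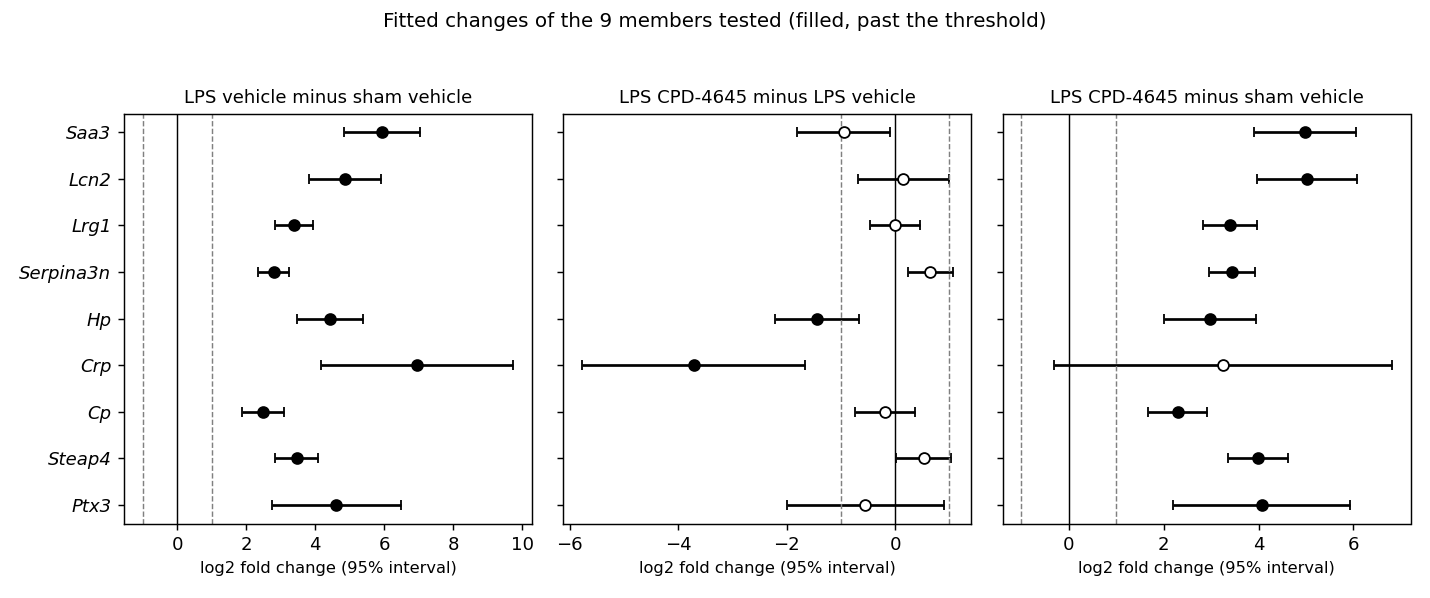
Log2 fold changes of the 9 members tested, with 95% intervals from the edgeR fit, in the 3 comparisons; filled points passed the threshold and dashed lines mark 2-fold. After LPS the points of the 8 members other than *Crp* are filled, beside 4.68% of all genes tested. Between LPS/CPD-4645 and LPS mice *Hp* at -1.44 is the only 1 of these 8 filled, beside 4.19% lower of all genes tested. *Crp*, which passed the filter only through the LPS group, is filled in both, at -3.71 in the second.

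LPS/CPD-4645 against sham showed what remained of the response under the inhibitor. The 8 members tested other than *Crp* were higher past the threshold, where 6.11% of all genes tested were. In these 8 the groups did not overlap, which held upward for 18.7% of all genes tested. *Hp*, over the filter in 1 of 4 sham mice, is again among the 8. The sham mice are those of the first comparison. *Lcn2* was highest at 5.02 (SE 0.50, adjusted p = 8.12e-07), followed by *Saa3* at 4.98 (SE 0.51, adjusted p = 9.77e-07). Without sham mouse 1 the *Lcn2* difference was 5.93.

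*Ptx3* was higher by 4.06 (SE 0.89, adjusted p = 0.00151), or 3.35 without LPS/CPD-4645 mouse 2, and missed the threshold in limma-voom (adjusted p = 0.0557). *Hp* was 2.98 above sham (SE 0.46, adjusted p = 6.4e-05), or 3.59 without sham mouse 1. *Crp* had a fitted difference of 3.25 (SE 1.70, adjusted p = 0.14), and its bound was at least 1.23-fold, with a mean under the floor without LPS/CPD-4645 mouse 1. *Serpina3n* at 3.44, *Lrg1* at 3.40, *Steap4* at 3.99 and *Cp* at 2.29 had adjusted p from 1.21e-08 to 1.2e-05. *Orm2* was at least 2.26-fold higher than in sham mice, with the smallest p the exact permutation test allows (p = 0.0286, not adjusted over genes). This bound was 1.53 without LPS/CPD-4645 mouse 3 and 1.9 without mouse 1, and mice 2 and 4 held 2 counts each. Without the filter the edgeR fit gave 4.19 and missed the threshold (adjusted p = 0.0544).

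Within the LPS/CPD-4645 group, mouse 2 was highest for 6 of the 9 members and mouse 4 lowest for 6. Mouse 4 also had the highest sum of neuronal markers in its group, 12850 CPM against 10130 to 10630 CPM in the others. The part of this in its values was not tested.

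Close relatives of the members were read beside them. *Saa1* and *Saa2*, the main serum amyloids of the liver, rose by 4.04 (SE 0.58, adjusted p = 5.54e-05) and 3.83 (SE 0.75, adjusted p = 0.00121) after LPS, but from means of 0.220 and 0.105 CPM to only 3.69 and 1.87 CPM, beside 491 CPM for *Saa3*. Without sham mouse 2 the *Saa1* rise was 5.28, and without sham mouse 1 that of *Saa2* was 6.56. Under CPD-4645 neither passed (0.05, adjusted p = 0.943, and -0.35, adjusted p = 0.688).

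*Orm1* was at least 7.22-fold higher after LPS (adjusted p = 0.00126), at a mean of 0.856 CPM, and its fitted rise went from 5.24 to 7.55 without sham mouse 1. It was lower under CPD-4645 by a fitted -2.27 (adjusted p = 0.0329), a call lost without LPS/CPD-4645 mouse 1 (-1.97), 2 (-1.91) or 4 (-2.57) and with a replicate block. Like *Crp*, *Orm1* passed the filter through 4 LPS mice and no other mouse, so this difference was not free to be small. *Orm3* was too low to be tested.

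Of the 10 neighbours of *Serpina3n* in the Serpina3 gene cluster, 5 were tested and 4 rose after LPS, as did 4.68% of all genes tested: *Serpina3f* by 4.09, *Serpina3h* by 4.05, *Serpina3i* by 3.68 and *Serpina3g* by 1.94. None of the 5 passed under CPD-4645, and their median there was 0.39. *Serpina3m*, at 1.43 in that comparison, passed without sham mouse 2 (1.44) or LPS/CPD-4645 mouse 3 (1.74) or 4 (1.72). All 5 were above sham past the threshold in LPS/CPD-4645 mice, as were 6.11% of all genes tested, with a median of 3.74. *Serpina3f* did not pass in limma-voom after LPS. Without sham mouse 1 the rises of *Serpina3f* and *Serpina3i* were 4.78 and 4.43.

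The list of 29 other acute-phase proteins had 19 members tested. Of these, *Orm1* passed the filter only through the LPS group and *Fga* and *Itih4* only through the LPS/CPD-4645 group. Of the other 16, 13 rose after LPS and 0 fell, where 4.68% of all genes tested rose, and their median was 2.61. Genes over the filter only in LPS-treated mice stay among the 16, such as *Il1rn*, at 0.342 CPM or less in sham mice. The largest fitted rise of the 19 was that of *Fga*, a fibrinogen chain, which was at 0 in all sham mice and at least 3.45-fold higher at a mean of 0.409 CPM. *Il1rn*, the IL-1 receptor antagonist, rose by 5.04 and complement *C3* by 3.52. Under CPD-4645, 3 of the 16 fell and 0 rose, where 4.19% of all genes tested were lower and 1.70% higher. *Itih3*, a hyaluronan-binding inter-alpha-trypsin inhibitor chain, fell by 1.42 (adjusted p = 0.000137) and *C3* fell by 1.66 (adjusted p = 0.00198). Outside these 16, *Itih4* rose by 2.67 (adjusted p = 0.00487), from 0.260 to 1.86 CPM, but it passed the filter through the 4 LPS/CPD-4645 mice, with 1 sham mouse and no LPS mouse over it. Against sham, 12 of the 16 were higher in LPS/CPD-4645 mice, as were 6.11% of all genes tested.

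Of 10 negative acute-phase proteins, whose plasma levels drop in the response, 6 were tested. After LPS *Ttr*, the transthyretin made in the brain by the choroid plexus, fell by 1.04 (adjusted p = 0.041), a call lost without sham mouse 2 (-0.79) or 4 (-0.96) or LPS mouse 1 (-0.92), 2 (-0.92) or 4 (-0.93) and in DESeq2, and *Apoa1* rose by 1.44 (adjusted p = 0.0141). Under CPD-4645 *Ttr* was 2.001-fold higher (adjusted p = 0.035), a call lost without LPS mouse 1 (0.88), 2 (0.88) or 4 (0.89) or LPS/CPD-4645 mouse 2 (0.89) or 3 (0.64), and in limma-voom and DESeq2. The groups overlapped in both comparisons. The 9 other choroid plexus markers summed to 32.2 to 50.8, 32.9 to 42.0 and 26.9 to 46.2 CPM in sham, LPS and LPS/CPD-4645 mice, ranges that overlapped. Of the 9, *Kcnj13* was lower after LPS (-1.22, adjusted p = 0.0375) and *Kcne2* higher under CPD-4645 (1.54, adjusted p = 0.0285). Each missed the threshold in the other comparison, *Kcne2* at -1.34 after LPS and *Kcnj13* at -0.14 under CPD-4645. *Kcnj13* stayed below sham in LPS/CPD-4645 mice (-1.36), a call lost without sham mouse 2 (-0.91) or LPS/CPD-4645 mouse 4 (-1.15). Of the 10 choroid plexus markers, 5 were above 0 and 5 below under CPD-4645, with a median of -0.02. The *Kcnj13* call after LPS was lost in limma-voom and without sham mouse 1, 2 or 4 or LPS mouse 1, 2, 3 or 5, where the change was between -1.32 and -0.78. The *Kcne2* call was lost without LPS mouse 1 (1.42) or 4 (1.54) or LPS/CPD-4645 mouse 2 (1.32) or 3 (1.43). The part of choroid plexus tissue in *Ttr* was not tested.

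Of 27 genes of the inducing pathways tested (cytokines, receptors, kinases, transcription factors and the inhibitors *Socs3* and *Nfkbia*), 17 rose, 0 fell and 10 did not pass after LPS, where 4.68% of all genes tested rose. Without *Osm*, which passed the filter only through the LPS group, 16 of 26 rose. *Il6*, at 0.296 CPM or less in sham mice, was over the filter only in LPS-treated mice and stays among the 26. The largest rises were those of *Il6* at 5.46, *Bcl3* at 4.58, *Il1b* at 4.46, *Cebpd* at 3.83, *Lif* at 3.75 and *Socs3*, the feedback inhibitor of IL-6 signaling, at 3.69. *Il6* and *Lif* missed the threshold in limma-voom, and the rise of *Il6* was 4.85 without LPS mouse 2. Under CPD-4645 1 of the 27 passed, where 4.19% of all genes tested were lower. This was *Il1b*, lower by 1.41 in the fit (adjusted p = 0.0428), and the call was lost without LPS mouse 2 (-1.18) or 3 (-1.05), or without LPS/CPD-4645 mouse 2 (-1.16) or 3 (-1.23), and also in limma-voom, DESeq2 and the fit of these groups alone. Against sham, 17 of the 27 were higher in LPS/CPD-4645 mice, or 16 of 26 without *Osm*, beside 6.11% of all genes tested.

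Among 17 receptors and partners tested, 7 rose and 2 fell after LPS, beside 4.68% and 0.995% of all genes tested. *Fpr2* and *Tlr2*, receptors for serum amyloid A, rose by 4.12 and 3.51, and *Fcgr2b*, an Fc receptor that binds pentraxins, by 2.72. *Slc40a1*, the iron exporter ferroportin that works with ceruloplasmin, fell by 2.23 (adjusted p = 9e-07) to a mean of 2.76 CPM, and *Tnfaip6*, a partner of PTX3 in hyaluronan matrix, fell by 1.01 (adjusted p = 0.000694). The *Tnfaip6* change was under 2-fold without sham mouse 3 (-0.94) or 4 (-0.88) or LPS mouse 1 (-0.999), 3 (-0.92) or 5 (-0.93), and it missed the threshold in limma-voom. Under CPD-4645 only *Fcgr2b* passed, where 4.19% of all genes tested were lower, falling by 1.16 (adjusted p = 0.00782), and the change was -0.94 without LPS/CPD-4645 mouse 3. Against sham 6 were higher and 1, *Slc40a1*, was lower in LPS/CPD-4645 mice, beside 6.11% and 4.98% of all genes tested.

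**Figure D4:**
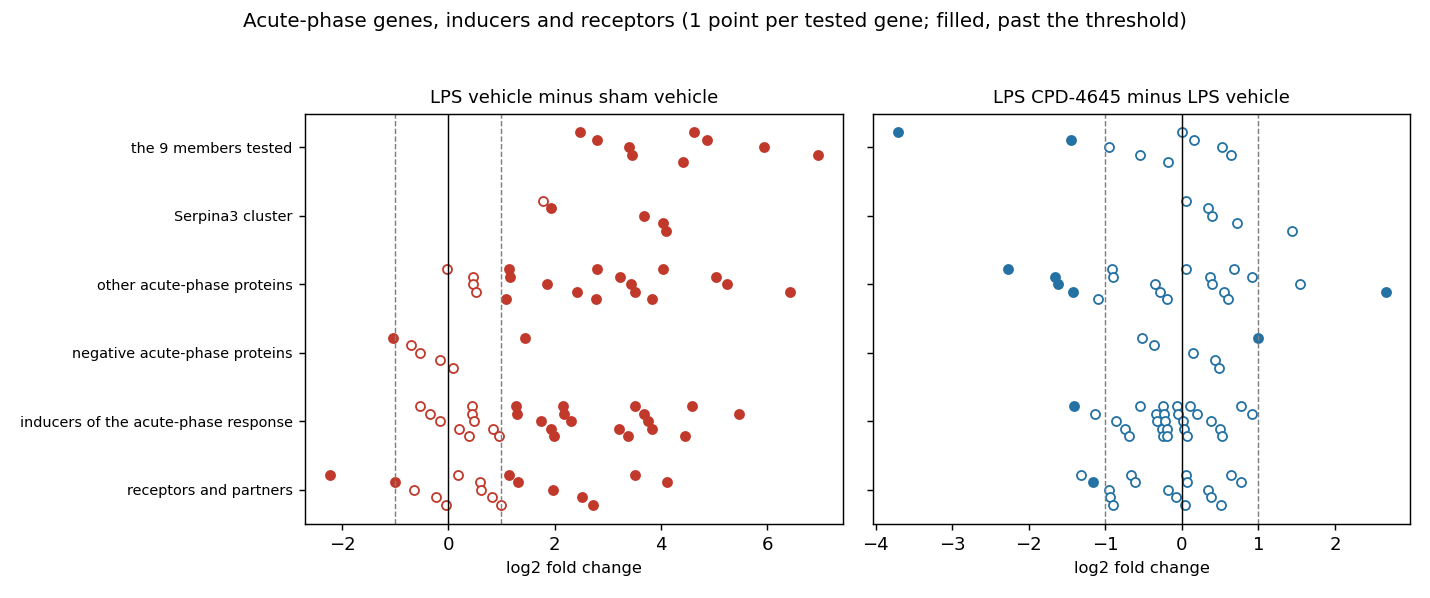
Log2 fold changes of the 9 members tested and of the tested genes of 5 related lists, 1 point per gene, after LPS (left) and under CPD-4645 (right); filled points passed the threshold and dashed lines mark 2-fold. After LPS 15 of 19 other acute-phase genes and 17 of 27 inducers are filled on the right of 0 (13 of 16 and 16 of 26 without *Orm1*, *Fga*, *Itih4* and *Osm*, which passed the filter through 1 group), beside 4.68% of all genes tested, and under CPD-4645 few points are filled in any list.

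The genes whose profile over the 13 mice was most like each member's were found by the root-mean-square difference of centred log2 CPM among 14844 genes (14845 for *Crp*) whose mean over all mice was 1 CPM or more. *Serpina3n* was nearest to *Mt1* (0.292) and *Gbp2* (0.295). *Steap4* and *Lrg1* shared *Ctla2a* as the nearest gene (0.314 and 0.463). *Saa3* was nearest to the macrophage receptors *Marco* (0.413) and *Msr1* (0.541), and *Hp* to *Cd14* (0.464) and *Gpr84* (0.472). *Lcn2* was nearest to *Tmem252* (0.543) and to *Saa3* (0.653), *Cp* to *Gm45188* (0.341) and *Angpt2* (0.425), *Ptx3* to *Tnfaip2* (0.742) and *Ccl4* (0.870), and *Crp* to *Ifitm6* (0.742) and *Stra6* (0.853). These likenesses include the difference between groups and carry no test.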

How the data were processed

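RNA-seq reads from 13 libraries were aligned by the authors to mm10/GRCm38 with STAR 2.5.2a after bcl2fastq 2.15.0.4, per the labels and the study's methods, and assigned to genes of GENCODE M9 (basic set). The deposited values are whole-number counts without normalization. The strand setting behind the deposited column is not given in the sources used here, so opposite-strand neighbours such as *Cp* and *Hps3* may share reads. Replicates are separate mice.

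Counts were filtered with filterByExpr (minimum count 10, minimum total 15), which left 17285 of 27934 genes with any count, normalized by TMM (factors 0.908 to 1.08) and fitted with edgeR 4.0.16 in R 4.3.3, all 13 mice in 1 quasi-likelihood model of the 3 groups (common dispersion 0.0334). Log2 CPM used a prior count of 2. Intervals are at 95%. A fold against a group with at most 3 counts in every library was computed against that floor, averaged over its libraries, and is a lower bound that covers counting error only. The script was tested on simulated data. Symbols and positions came from GENCODE M21 (GRCm38), to which 47224 of 47643 identifiers matched. Figures used Python 3.11.15 and matplotlib 3.10.9.

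The members and gene lists were chosen with earlier results of these data known. Named were all members, their paralogs, overlapping genes, the 2 nearest genes of each member tested, and up to 6 genes past the threshold by size in each list and comparison. A list gene that this rule would name is not reported here. Alternatives were limma-voom (limma 3.58.1), DESeq2 1.42.0, DESeq2 size factors, no filter, a minimum mean count of 50, a fit of 2 groups at a time, glmTreat at 2-fold, a replicate block and each mouse left out. Leaving out the 2 shallowest libraries, or LPS mice 2 and 3, and single mice for the levels per kilobase, was added after seeing the data. *Gfap* and *P2ry12* were named after their values were seen.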

Additional observations from a re-analysis of the deposited data

Results flagged for a closer look

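Within-group spread was examined for the 10 members in 3 groups, 30 groups of mice in all, and in 6 of them 1 mouse stood apart from the others by Dixon's criterion. The criterion would pick about 1 in 20 groups by chance if values were normally distributed, which was not tested here. *Saa3* reached 1094 CPM in LPS mouse 3, the shallowest library, against 415 CPM in the next mouse. *Crp* reached 6.06 CPM in LPS mouse 2, the deepest library and the one with the highest neutrophil marker sum, against 0.756 CPM in the next. *Cp* stood at 87.5 CPM in LPS mouse 5, against 59.5 CPM. *Orm2* stood at 1.55 CPM in LPS mouse 5, against 0.126 CPM. In sham mice the values that stood apart were single counts among zeros, which meet the criterion by construction, *Crp* at 0.0285 CPM in sham mouse 1 and *Orm2* at 0.0494 CPM in sham mouse 4.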

How the results depend on the processing

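The rise of all 9 members tested after LPS kept its direction in every alternative in which the gene was tested, and the count past the threshold was 8 to 10 (8 to 9 with single mice left out). Against sham in LPS/CPD-4645 mice it was 7 to 8. The count for LPS/CPD-4645 against LPS, 2 with *Crp*, was 1 with limma-voom, 1 with DESeq2, where *Crp* had no adjusted p, 1 with a mean count of at least 50, where *Crp* was not tested, 0 in the test against the 2-fold change and 0 without LPS mice 2 and 3. With single mice left out it was 1 to 2, and 1 without LPS mouse 1, 2 or 3, where *Crp* failed the filter, as it did without LPS mouse 4, where *Saa3* passed. For the other losses the cause was not tested. Over all genes, 981, 1019 and 1917 passed in the 3 comparisons, 439, 65 and 561 in the test against the 2-fold change, and 632 for LPS/CPD-4645 against LPS with a mean count of at least 50. Replicate numbers are shared between groups, but same-numbered mice did not deviate together (r from -0.035 to 0.114 over 12 pairs, 1 of them above 0.1). A replicate block gave 972, 939 and 1882 genes and 9, 2 and 8 members, and changed no member's call. Of the related genes named it ended the calls of *Orm1* under CPD-4645 and of *Tnfaip6* and *Kcnj13* after LPS. It also ended that of *Apoa1* in LPS/CPD-4645 mice against sham (1.07 in the main fit), and *Il1rn* and *Fpr2* passed, lower, under CPD-4645. *Crp*, *Orm1*, *Orm2* and *Fga* had at most 3 counts in any sham library, so their folds against sham are bounds.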
